A study of Mus musculus with 30 samples.

Results

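The 20 liver RNA-seq libraries of C151S and Nrf2-knockout mice fell into 2 sets by their level of Arntl, the gene of the clock activator BMAL1: 9 livers with high Arntl and 11 with low Arntl, of 30 libraries in the series. A library was put in the high set when Arntl was above 1.7 on the log2 scale of CPM (read counts per gene scaled to library size, by TMM over the 20 libraries, prior count 2) and in the low set when it was below. The same data formed the sets and gave the differences between them, so Arntl itself was described and not tested, and the test results say which other genes moved with Arntl, not what separated the livers. The study compared livers of male mice, 7 to 10 weeks old and of an albino C57BL/6J background, 24 h after 1 oral dose of CDDO-Me (bardoxolone methyl, a triterpenoid that activates the transcription factor NRF2) at 30 µmol/kg or of its vehicle (DMSO, Cremophor-EL and PBS). C151S mice, made with CRISPR, were homozygous for a KEAP1 (the protein that holds NRF2 in check) in which serine took the place of the sensor cysteine that CDDO-Me is known to bind. Nrf2-knockout mice (labelled N0) carried a disrupted Nfe2l2, the gene of NRF2. The 10 wild-type libraries, 5 with vehicle and 5 with CDDO-Me, were not used by the rule and served as a reference. Each liver was taken as a separate mouse, since the study states 5 biological replicates per group. The hour of day of collection, the cage of each mouse and the date on which each sample was isolated were not given in the sources used here. The study's own model had a term for isolation date, which could not be fitted here, so the Arntl set and the isolation date cannot be told apart. In the order in which the series lists its libraries, the first 5 C151S livers were all in the high set and the last 5 all in the low set, and the last 3 Nrf2-knockout livers were in the high set, as was the knockout liver in place 4.

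The circadian clock of liver cells is a loop of transcription and feedback. BMAL1 pairs with CLOCK, or with NPAS2, and the pair binds E-boxes to drive the Per and Cry genes, Ciart, Dbp and the Nr1d genes. PER and CRY proteins inhibit the pair, whereas REV-ERB receptors (Nr1d1, Nr1d2) repress and ROR receptors activate Arntl, Npas2, Clock and Nfil3. Dbp, Tef and Hlf bind D-boxes and carry the rhythm on to enzymes of metabolism, and Nfil3 represses at the same sites. In mouse liver the transcripts of Arntl and those of Dbp and Per3 are known to peak at nearly opposite times of day.

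Arntl (chr7:113207465-113314126, GRCm38, plus strand) left a wide gap between the sets. Within the high set, C151S livers 1, 2 and 3 of the vehicle group held 12.02, 5.69 and 26.4 CPM, C151S livers 1 and 2 of the CDDO-Me group 12.8 and 13.9 CPM, Nrf2-knockout vehicle livers 4 and 5 11.2 and 15.97 CPM and Nrf2-knockout CDDO-Me livers 2 and 5 16.8 and 10.2 CPM. Within the low set, C151S vehicle livers 4 and 5 held 0.3904 and 0.438 CPM, C151S CDDO-Me livers 3, 4 and 5 0.722, 0.4803 and 0.782 CPM, Nrf2-knockout vehicle livers 1, 2 and 3 1.45, 0.963 and 0.6304 CPM and Nrf2-knockout CDDO-Me livers 1, 3 and 4 1.81, 0.934 and 0.6604 CPM. Both sets thus held both genotypes and both treatments, with 5 and 5 vehicle livers and 4 and 6 CDDO-Me livers in the high and the low set. On the log2 scale the library just above the threshold, C151S vehicle 2, was at 2.55, and the library just below it, Nrf2-knockout CDDO-Me 1, was at 0.92. This gap of 1.63 was wider than any other between neighbouring libraries, the next being 0.84. The 10 wild-type livers held 9.53 to 27.7 CPM and all lay on the high side. In counts, Arntl had 190 to 1034 reads in the high set and 12 to 68 in the low set, so the low values did not rest on single reads.

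Reads on Nfe2l2 were fewer in the knockout but not gone: the libraries held 22.4 to 39.8 CPM in Nrf2-knockout, 41.96 to 84.9 CPM in C151S and 47.9 to 70.97 CPM in wild-type livers, with no knockout library in the range of the others. The libraries were liver in both sets. The summed CPM of 7 hepatocyte markers (Alb, Apoa1, Apob, Ttr, Cps1, Tat and Hnf4a) was 70330 to 133100 CPM (median 112300) in the high and 102000 to 156500 CPM (median 118800) in the low set, and none of the 7 was called different. In whole liver, fewer cells of a type and less RNA per cell cannot be told apart. Depth over all 30 libraries was 23.7 to 42.1 M (mega) counts on genes. It was 33.02 ± 4.26 M (SD, n = 9) in the high and 36.6 ± 4.19 M (SD, n = 11) in the low set, a difference of -3.58 M with an adjusted p = 0.379 by an exact 2-sided permutation test over 167960 assignments of the libraries. The share of mitochondrial transcripts was 5.096% ± 0.937 in the high and 4.64% ± 0.776 in the low set (SD, exact permutation, adjusted p = 0.623). Of the 5 such technical measures, none reached an adjusted p under 0.05. A pair of libraries stood apart within the high set. In C151S CDDO-Me 1 and Nrf2-knockout CDDO-Me 2 the summed level of 14 acute phase genes was 162900 and 95830 CPM, against at most 38640 CPM in the other mutant livers, and Alb was lowest (48420 and 56790 CPM). Results that rest on this pair are given below with and without it, a choice made after the values were seen.

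Among the clock activators, Npas2 and Clock were higher in the high set, and Arntl2 overlapped between the sets. Npas2, a partner of BMAL1 in place of CLOCK, was at 0.419 to 3.19 CPM (median 1.06) in the high set and 0 to 0.106 CPM (median 0.0652) in the low set, which is 14 to 125 reads against 0 to 4 reads per library. The fitted log2 fold change of 4.13 ± 0.40 (SE) therefore depends on the prior count. Clock was at 32.1 to 52.2 CPM (median 45.4) in the high set and 16.7 to 34.2 CPM (median 21.1) in the low set, with a log2 fold change of 0.99 ± 0.11 (SE), and 1 low library reached into the range of the high set. Arntl2, a paralog of Arntl, was at 1.02 to 2.59 CPM (median 1.52) in the high set and 1.18 to 2.19 CPM (median 1.703) in the low set. Since the sets were drawn by Arntl and these genes were looked at with that split known, their differences are a description and carry no p.

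The repressors of the loop went the other way, but not evenly. Per2 was at 4.51 to 13.6 CPM (median 9.86) in the high set and 27.4 to 62.95 CPM (median 38.7) in the low set, and Per3 at 5.05 to 19.2 CPM (median 13.96) in the high set and 40.5 to 80.7 CPM (median 54.8) in the low set, so that the sets did not overlap for either gene (log2 fold changes -2.09 ± 0.22 and -2.19 ± 0.23, SE). Ciart, which encodes a repressor of CLOCK-BMAL1 activity, showed the widest difference of the repressors, at 0.674 to 10.7 CPM (median 5.15) in the high set and 25.2 to 70.2 CPM (median 44.3) in the low set (-3.01 ± 0.42). Cry2 also parted the sets, with 27.4 to 41.2 CPM (median 31.8) in the high set and 45.4 to 68.4 CPM (median 50.7) in the low set (-0.65 ± 0.08). Per1 overlapped between the sets, at 8.93 to 60.98 CPM (median 40.02) in the high set and 38.00 to 101 CPM (median 57.7) in the low set (-0.67 ± 0.25), and so did Cry1, at 2.43 to 8.66 CPM (median 4.37) in the high set and 3.28 to 10.6 CPM (median 5.14) in the low set (-0.32 ± 0.25). Without the pair of livers with high acute phase genes Per1 stood at -0.87 and passed the thresholds used for the other genes, which it did not over the 20 livers. For the repressors and the receptors below, this too is a description, since the split and the pair were known beforehand. Of the related repressors DEC1 and DEC2, Bhlhe41 was lower (-2.105 ± 0.32) and Bhlhe40 changed by -0.27 ± 0.22. Thus all 8 repressors had a negative log2 fold change, 4 of them without overlap of the libraries, which was true of 0.827% of all genes tested.

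The nuclear receptors of the loop overlapped between the sets. Nr1d1, the gene of REV-ERB-alpha, was at 13.96 to 187 CPM (median 106) in the high set and 29.6 to 181 CPM (median 79.9) in the low set, and its lowest library was Nrf2-knockout CDDO-Me 2. Its log2 fold change was 0.28 ± 0.31 over the 20 livers, under the thresholds used for the other genes, and 0.61 without the acute phase pair, past them. Nr1d2 (REV-ERB-beta) was at 35.6 to 90.8 CPM (median 75.1) in the high set and 76.3 to 140 CPM (median 101) in the low set, a log2 fold change of -0.63 ± 0.13 (SE) that became -0.48 without the pair, short of the threshold of 0.5. Rora, a ROR receptor, differed by 0.06 ± 0.12. The output factors differed more by value. Dbp was at 4.55 to 66.3 CPM (median 19.7) in the high set and 117 to 187 CPM (median 150) in the low set and Tef at 56.9 to 130 CPM (median 101) in the high set and 192 to 300 CPM (median 262) in the low set, both without overlap (-2.71 ± 0.33 and -1.4 ± 0.12), whereas Hlf changed by -0.54 ± 0.17 with overlap. Nfil3 was higher, at 11.1 to 63.2 CPM (median 21.9) in the high set and 6.11 to 18.6 CPM (median 10.4) in the low set (1.396 ± 0.29). Its highest values, 63.2 and 42.05 CPM, were those of the acute phase pair, and without the pair it differed by 0.969. The wild-type livers lay with the high set for most of these genes. They held 7.36 to 16.6 CPM of Per2, 6.69 to 22.6 CPM of Per3, 12.6 to 66.9 CPM of Dbp, 69.2 to 144 CPM of Tef and 0.369 to 4.46 CPM of Npas2, so that for these 5 genes no wild-type liver reached the range of the low set.

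**Figure D1:**
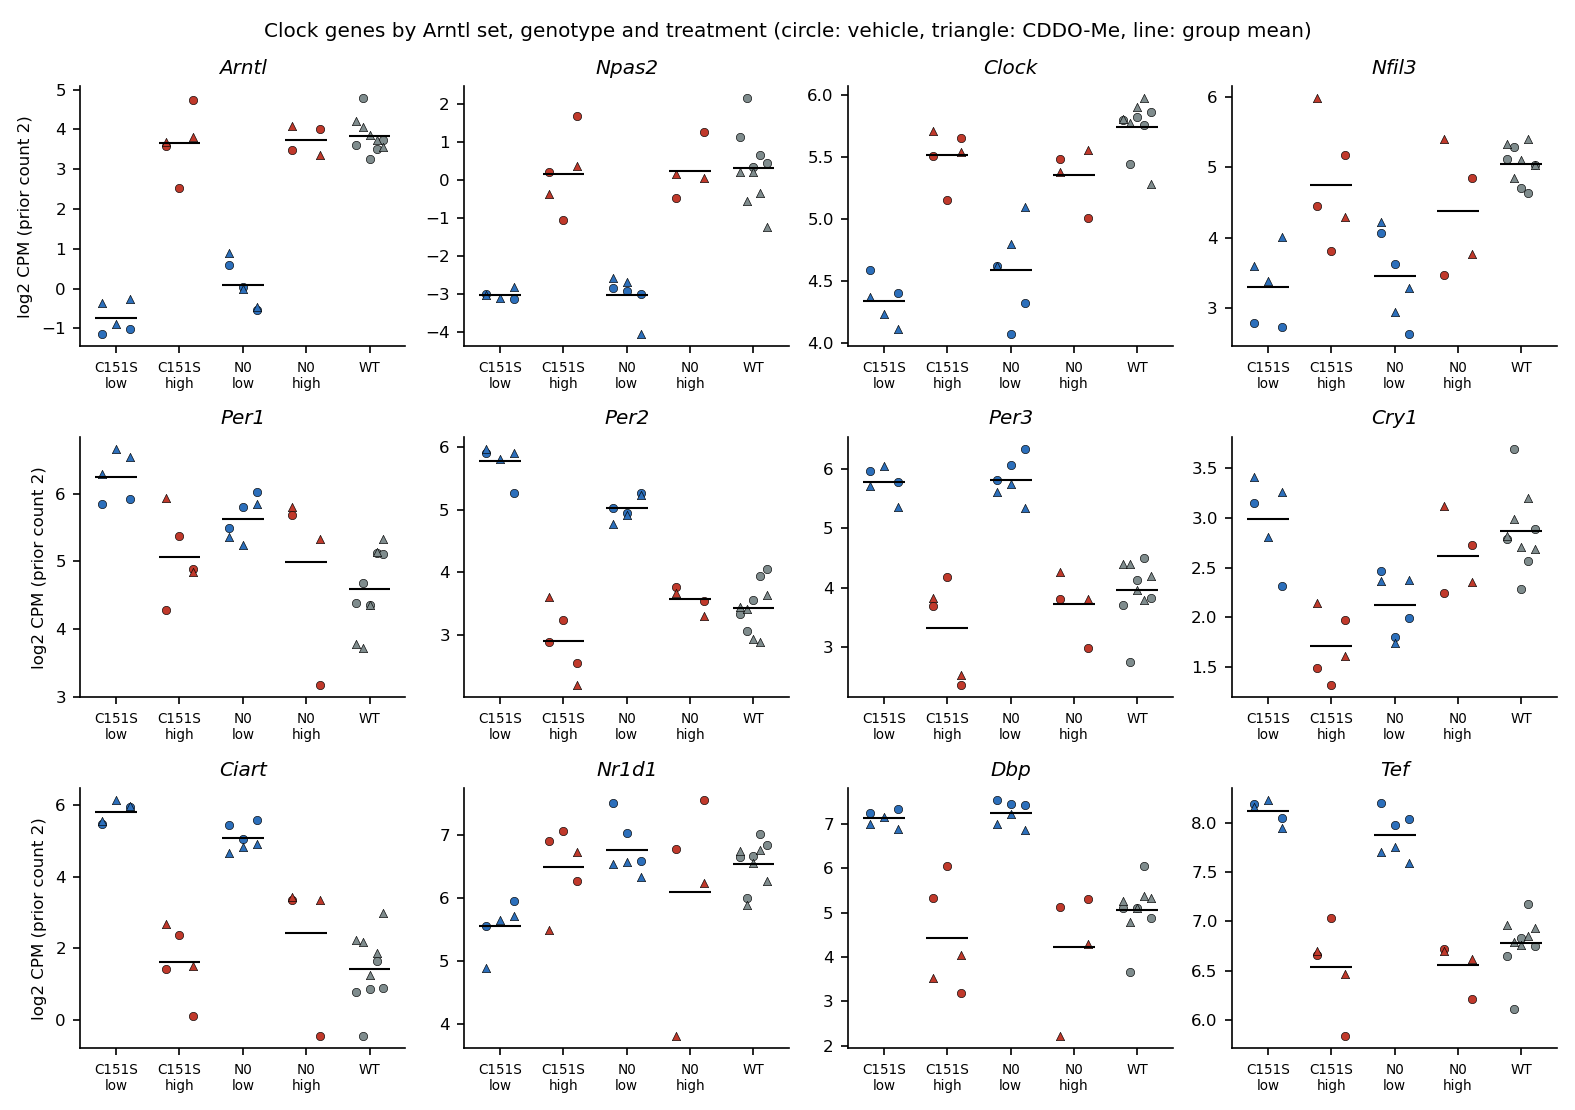
Log2 CPM (prior count 2, TMM over 30 libraries) of 12 clock genes on the y axes, with the livers grouped on the x axes by genotype and Arntl set. Each point is a liver, circles are vehicle and triangles CDDO-Me, and lines are group means. The low sets of both mutants part from the high sets and from the wild-type livers for Npas2, Per2, Per3, Ciart, Dbp and Tef. The group means of Cry1 and Nr1d1 order the sets differently in C151S and Nrf2-knockout livers. In the knockouts the livers of the sets overlap for both genes, and Nr1d1 is lowest in CDDO-Me 2.

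The differences of Cry1 and Nr1d1 turned with genotype in their values. For Cry1 the fitted log2 fold change was -1.21 ± 0.21 in C151S and 0.52 ± 0.21 in Nrf2-knockout livers, and for Nr1d1 it was 0.92 ± 0.26 and -0.38 ± 0.42. In the knockout high set, Nr1d1 was 13.96 CPM in CDDO-Me 2, of the acute phase pair, and 75.55 to 187.1 CPM in the other livers. The knockout low set held 79.87 to 180.9 CPM, so apart from CDDO-Me 2 the sets overlapped widely. Tested as an interaction of set and genotype over all genes, that of Cry1 had an adjusted p = 0.0753 and that of Nr1d1 an adjusted p = 0.387 (edgeR), so neither passed the threshold of 0.05. The order of Cry1 in C151S livers was that of Per2. In Nrf2-knockout livers the medians of Cry1 lay the other way, at 5.82 CPM in the high and 4.495 CPM in the low set. The livers overlapped there, at 4.69 to 8.66 CPM in the high and 3.28 to 5.48 CPM in the low set, and the highest was CDDO-Me 2.

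The promoters of 4 genes with wide differences are shown because each holds a clock motif within the 250 bases before its RefSeq start (GRCm38.p6). Capitals mark the E-box CACGTG, which reads the same on both strands, and the D-box TTATGTAA on either strand; the motifs do not overlap in these windows.
Ciart: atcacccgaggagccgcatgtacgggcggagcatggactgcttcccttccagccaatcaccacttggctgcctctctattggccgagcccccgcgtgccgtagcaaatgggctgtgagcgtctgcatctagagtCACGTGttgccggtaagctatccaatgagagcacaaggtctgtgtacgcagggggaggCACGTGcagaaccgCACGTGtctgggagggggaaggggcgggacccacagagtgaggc
Per3: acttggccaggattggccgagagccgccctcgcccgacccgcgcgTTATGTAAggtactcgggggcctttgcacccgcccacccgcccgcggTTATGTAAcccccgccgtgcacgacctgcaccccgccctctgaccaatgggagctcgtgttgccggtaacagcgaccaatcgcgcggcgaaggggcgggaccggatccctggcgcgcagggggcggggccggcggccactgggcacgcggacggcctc
Tef: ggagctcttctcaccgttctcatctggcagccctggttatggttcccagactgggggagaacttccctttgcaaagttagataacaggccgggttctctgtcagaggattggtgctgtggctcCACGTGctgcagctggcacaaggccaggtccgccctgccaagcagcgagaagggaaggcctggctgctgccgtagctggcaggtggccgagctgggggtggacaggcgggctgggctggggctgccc
Coq10b: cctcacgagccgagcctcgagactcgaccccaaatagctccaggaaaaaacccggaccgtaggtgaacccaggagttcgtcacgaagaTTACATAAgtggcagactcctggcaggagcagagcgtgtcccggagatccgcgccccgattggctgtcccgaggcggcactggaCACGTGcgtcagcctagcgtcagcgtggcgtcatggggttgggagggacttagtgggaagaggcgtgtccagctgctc
The Ciart window (chr3:95882229-95882478, minus strand) held E-boxes that began 116, 58 and 44 bases before the start, and the Per3 window (chr4:151044666-151044915, minus strand) held D-boxes at 205 and 158 bases. In the first of the 2 Tef windows (chr15:81802423-81802672, plus strand) an E-box began 127 bases before the start, and in the Coq10b window (chr1:55052520-55052769, plus strand) an E-box began 78 and a D-box 162 bases before it. Of all 32851 RefSeq promoters, 6.02% held the E-box, 0.819% the D-box and 0.332% the ROR element (RORE). A promoter was matched by symbol to 11130 of the 15240 genes tested. An E-box was found in 16.2% of the 253 matched genes called lower in the high set, in 5.62% of the 409 called higher and in 9.60% of all 11130, and leaving out the clock lists gave 15.5% and 5.67%. For the D-box the shares were 2.37%, 0.978% and 0.674%, and for the RORE 0%, 0.244% and 0.225%. Of the 78 named genes with a promoter in the table, 16 held any of these motifs and 62 held none, among them Arntl, Npas2, Dbp, Usp2, Clpx and Lgalsl. These are counts of letters in short windows and do not show that a factor was bound.

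Over the whole transcriptome, 946 of 15240 genes tested (6.21%) were called different between the sets, 596 higher (3.91%) and 350 lower (2.30%) in the high set, by the thresholds of the study (adjusted p under 0.05, log2 fold change beyond 0.5 in either direction) in edgeR's quasi-likelihood test with genotype and treatment group in the model. All p-values called adjusted for genes are Benjamini-Hochberg values over all genes tested in that fit. Of the called genes, 593 higher and 340 lower ones lay outside the clock lists. The changes were moderate: genes called higher had a median log2 fold change of 0.77 and genes called lower one of -0.72, and 159 and 88 of them passed an absolute value of 1. The libraries of the sets did not overlap at all for 126 genes (0.827%), 54 higher (0.354%) and 72 lower (0.472%), of which 100 were called. Without C151S CDDO-Me 1 and Nrf2-knockout CDDO-Me 2 the count rose to 1747 of 15432 (11.3%; 1171 higher, 7.59%, and 576 lower, 3.73%), and 813 of the 946 were among them. Leaving out single libraries gave 709 to 1254. Upper quartile normalization gave 700 higher and 294 lower genes, and without the threshold on the fold change 1142 were higher and 1174 lower.

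**Figure D2:**
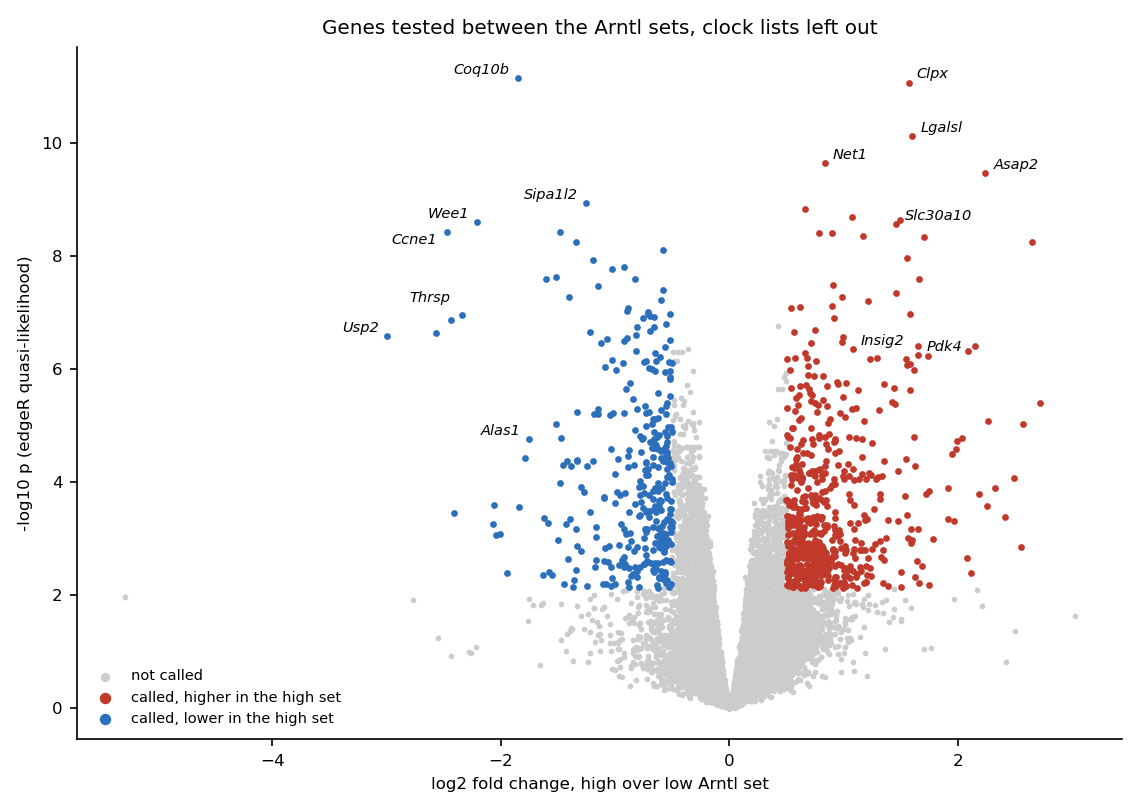
Log2 fold change between the high and the low Arntl set on the x axis against -log10 p of the edgeR quasi-likelihood test on the y axis, 1 point per gene, for the genes outside the clock lists. Red points are the 593 genes called higher and blue points the 340 called lower in the high set. Clpx and Coq10b have the lowest p in their directions.

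The 10 genes with the lowest p among those higher in the high set, outside the clock lists, parted the sets without overlap. Clpx (chr9:65294260-65330658), the unfoldase of the mitochondrial ClpXP protease that also acts on the first enzyme of heme synthesis, was at 122 to 245 CPM (median 190) in the high set and 47.9 to 78.1 CPM (median 57.6) in the low set, with 140 to 204 CPM in wild-type livers (log2 fold change 1.57 ± 0.11 (SE), adjusted p = 6.36e-08). Asap2, which encodes a GTPase-activating protein for Arf proteins, was at 12.4 to 35.1 CPM (median 16.6) in the high set and 2.87 to 5.49 CPM (median 3.46) in the low set (log2 fold change 2.24 ± 0.19 (SE), adjusted p = 1.04e-06). Lgalsl, a galectin-like gene, was at 10.8 to 22.6 CPM (median 14.2) in the high set and 4.03 to 7.18 CPM (median 5.25) in the low set (log2 fold change 1.6 ± 0.12 (SE), adjusted p = 3.79e-07). In these genes each high liver lay above each low liver. Slc30a10, a manganese exporter, was at 25.01 to 59.4 CPM (median 33.5) in the high set and 8.196 to 16.8 CPM (median 13.3) in the low set (log2 fold change 1.46 ± 0.14 (SE), adjusted p = 3.15e-06). Nedd4l, a ubiquitin ligase, differed by 1.08 ± 0.10. Tab2, an adaptor of the kinase TAK1, differed by 0.902 ± 0.09, Net1, an exchange factor for RhoA, by 0.84 ± 0.07, Itsn1, a scaffold of endocytosis, by 0.79 ± 0.08 and Agtr1a, the angiotensin II receptor of hepatocytes, by 0.67 ± 0.06. For Agtr1a the wild-type livers, at 54.1 to 70.1 CPM, lay below the whole high set, which began at 74.4 CPM, and only partly above the low set, which ended at 57.2 CPM.

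In the other direction, Coq10b (chr1:55052770-55072702), a binding protein of coenzyme Q in mitochondria, was at 10.8 to 27.6 CPM (median 18.1) in the high set and 43.9 to 91.4 CPM (median 68.7) in the low set (log2 fold change -1.85 ± 0.12 (SE), adjusted p = 6.36e-08). Wee1, the kinase that holds back entry into mitosis and a known clock output, was at 1.82 to 5.24 CPM (median 3.04) in the high set and 9.68 to 25.1 CPM (median 14.2) in the low set (log2 fold change -2.21 ± 0.21 (SE), adjusted p = 3.15e-06). Ccne1, cyclin E1, was at 0.256 to 1.19 CPM (median 0.569) in the high set and 2.35 to 5.69 CPM (median 3.27) in the low set (log2 fold change -2.47 ± 0.24 (SE), adjusted p = 3.53e-06), while wild-type livers held 0.307 to 0.747 CPM. Gys2, the glycogen synthase of liver, was abundant, at 96.9 to 263 CPM (median 148) in the high set and 242 to 490 CPM (median 394) in the low set (log2 fold change -1.34 ± 0.14 (SE), adjusted p = 4.09e-06), and here 1 liver of each set reached into the other's range. The remaining 6 of the 10 genes with the lowest p did not overlap. They were Sipa1l2, a Rap GTPase-activating protein (-1.25 ± 0.11), Lonrf1, a RING finger protein (-1.48 ± 0.14), Lrp4, a receptor of the low-density lipoprotein receptor family (-1.19 ± 0.12), Nmrk1, a kinase that makes nicotinamide mononucleotide from the riboside (-1.02 ± 0.11), Eef2k, the kinase of elongation factor 2 (-0.92 ± 0.10), and Riok2, a kinase of ribosome maturation (-0.58 ± 0.06).

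Several of these genes also led when likeness to Arntl was measured across the 20 livers. After the means of the 4 groups of genotype and treatment had been removed, the highest Pearson correlations with Arntl on the log2 scale were those of Lgalsl (0.985), Clpx (0.979), Asap2 (0.972), Npas2 (0.971) and Nedd4l (0.950). The lowest were those of Coq10b (-0.986), Rev1, a polymerase of DNA damage bypass (-0.971), Tef (-0.964), Gys2 (-0.962) and Sipa1l2 (-0.955). The 20 points fall into the 2 sets by construction, so these values mostly restate the gap between the sets and are given without a p.

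Known rhythmic outputs of the liver clock, other than the core genes, were mostly lower in the high set. Of 12 such genes, 7 were called lower and 2 higher (75.0% called, against 6.21% of all genes tested), with a median log2 fold change of -0.76 against 0.02 over all genes tested. Nampt, which makes the NAD precursor nicotinamide mononucleotide, was at 33.1 to 53.2 CPM (median 42.2) in the high set and 48.6 to 133 CPM (median 90.9) in the low set (log2 fold change -1.07 ± 0.14 (SE), adjusted p = 6.33e-05). Alas1, the rate-limiting enzyme of heme synthesis, was at 39.96 to 702 CPM (median 339) in the high set and 206 to 1825 CPM (median 1210) in the low set (log2 fold change -1.75 ± 0.31 (SE), adjusted p = 0.00103), the lowest of all libraries being Nrf2-knockout vehicle 5. Insig2, a sensor that retains SREBP proteins in the endoplasmic reticulum, was higher, at 98.8 to 218 CPM (median 144) in the high set and 46.8 to 96.7 CPM (median 68.6) in the low set (log2 fold change 1.08 ± 0.14 (SE), adjusted p = 8.20e-05), with no overlap. Wee1 and Gys2, given above, and Por, given below, were also called, as were Rgs16, a regulator of G protein signaling (-2.04), the tetraspanin Tspan4 (-0.65) and Cdkn1a, the cyclin-dependent kinase inhibitor p21 (1.97), these 3 named after their values were seen. Of 9 enzymes that modify clock proteins only Usp2, a deubiquitinase, was called, at 2.45 to 24.1 CPM (median 7.098) in the high set and 32.2 to 108 CPM (median 54.9) in the low set (log2 fold change -3.00 ± 0.39 (SE), adjusted p = 5.79e-05), while Csnk1a1, the most abundant of them, differed by -0.04 ± 0.05. These lists were chosen with earlier results of these data known and are not independent evidence of a direction.

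**Figure D3:**
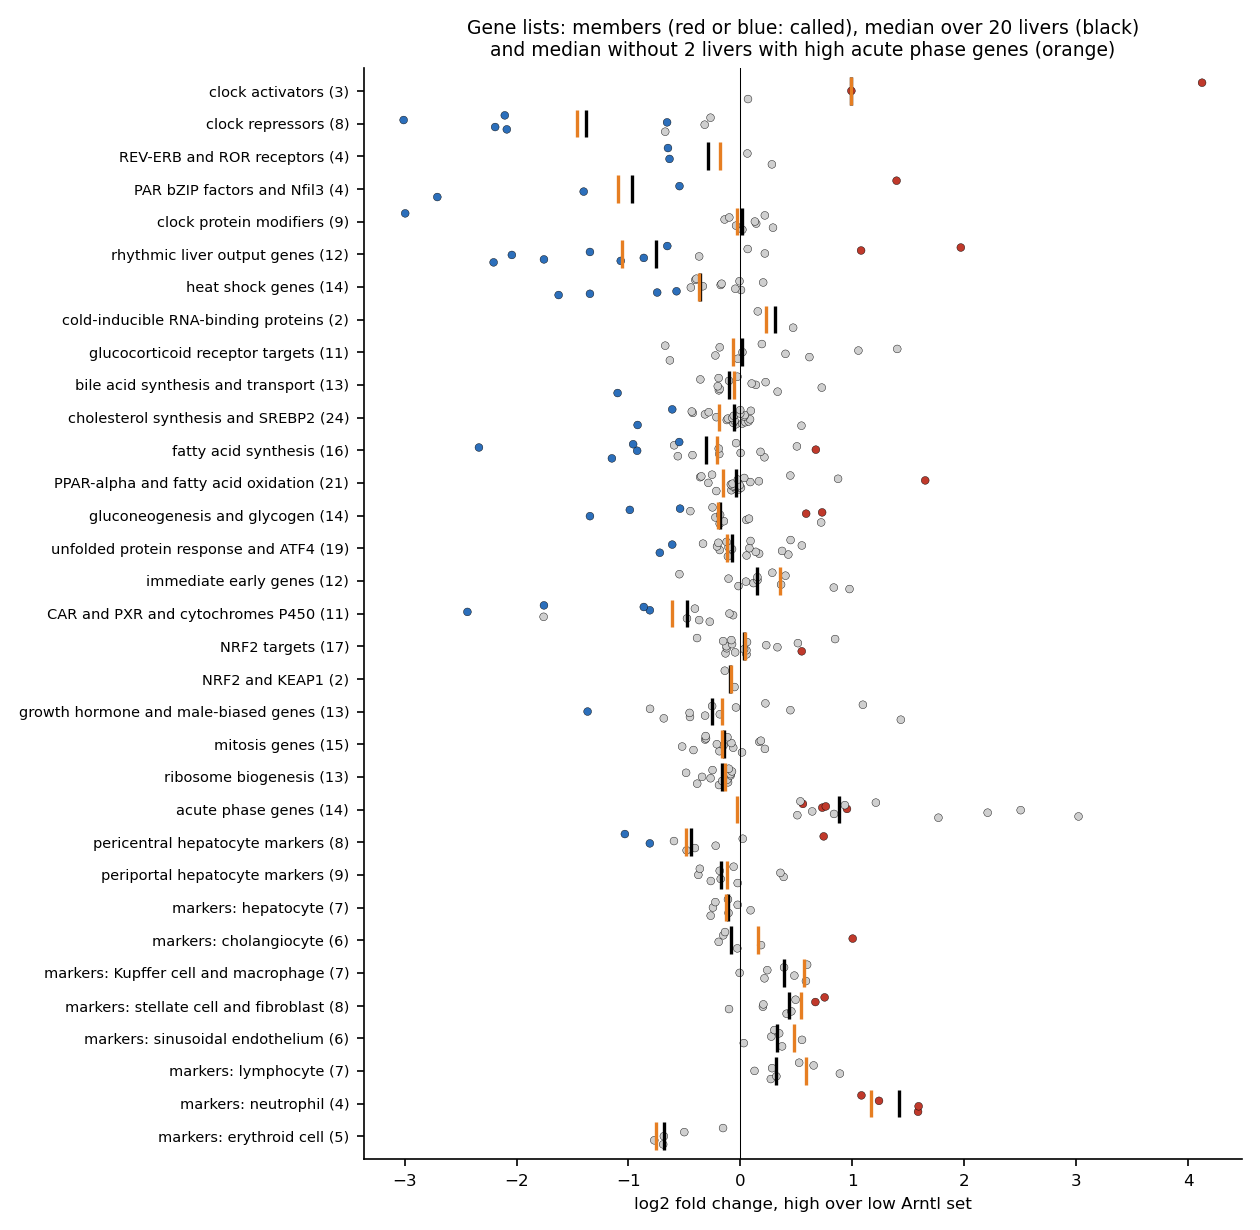
Log2 fold change between the high and the low Arntl set on the x axis for the members of 33 gene lists on the y axis, with the number tested in parentheses. Red and blue points were called, black ticks are medians over 20 livers and orange ticks medians without C151S CDDO-Me 1 and Nrf2-knockout CDDO-Me 2. The black and orange ticks part most for the acute phase genes (0.89 and -0.03).

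More genes of fatty acid synthesis were called lower than higher. Of 16 members, 5 were called lower and 1 higher (37.5% called, against 6.21% of all genes; median -0.31). Thrsp, a lipogenic gene of liver that responds to thyroid hormone and carbohydrate, was at 31.3 to 224 CPM (median 111) in the high set and 345 to 957 CPM (median 540) in the low set without overlap (log2 fold change -2.34 ± 0.28 (SE), adjusted p = 3.22e-05). Srebf1, which encodes the transcription factor of lipogenesis SREBP1, was at 115 to 251 CPM (median 136) in the high set and 203 to 560 CPM (median 354) in the low set (log2 fold change -1.15 ± 0.19 (SE), adjusted p = 4.89e-04). Pklr, liver pyruvate kinase, differed by -0.96 ± 0.20 (adjusted p = 0.00444) and Dgat2, an enzyme of triglyceride synthesis, by -0.55 ± 0.09 (adjusted p = 3.69e-04). The fatty acid elongases Elovl6 (-0.92, called lower) and Elovl5 (0.67, called higher) were named after their values were seen. Scd1, the stearoyl-CoA desaturase and the most abundant member, ranged from 943 to 14820 CPM in the high and from 2429 to 11760 CPM in the low set and was not called (log2 fold change 0.18 ± 0.33 (SE), adjusted p = 0.746). Its lowest values in the high set came from C151S CDDO-Me 1 and Nrf2-knockout CDDO-Me 2. Without this pair Scd1 differed by 0.54 and was still not called (adjusted p = 0.085, edgeR).

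Cholesterol and bile acid genes were called about as often as all genes (6.21%). Of 24 genes of cholesterol synthesis 2 were called (8.33%), both lower. Of these, Stard4, a cholesterol carrier, was at 38.95 to 136 CPM (median 114) in the high set and 93.02 to 195 CPM (median 158) in the low set (log2 fold change -0.61 ± 0.16 (SE), adjusted p = 0.0173). Of 13 genes of bile acid synthesis and transport 1 was called (7.69%). This was Cyp7a1, the rate-limiting enzyme of bile acid synthesis, at 52.1 to 253 CPM (median 124) in the high set and 104 to 547 CPM (median 267) in the low set (log2 fold change -1.097 ± 0.32 (SE), adjusted p = 0.0252). The call of Stard4 was lost without Nrf2-knockout CDDO-Me 2 and that of Cyp7a1 without C151S CDDO-Me 2 or C151S vehicle 4. With the acute phase pair left out, 3 genes of cholesterol synthesis were called lower, and 1 bile acid gene was called lower and 1 higher, in a fit that called 3.73% of all genes lower and 7.59% higher.

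In glucose metabolism, 3 of 14 genes were called lower and 2 higher (35.7% called, against 6.21% of all genes), and without the acute phase pair 3 were called lower and none higher, in a fit that called 11.3% of all genes. Besides Gys2, Slc2a2, the glucose transporter of hepatocytes, was lower, at 106 to 249 CPM (median 190) in the high set and 238 to 567 CPM (median 330) in the low set (log2 fold change -0.99 ± 0.14 (SE), adjusted p = 1.35e-04), as was Gbe1, the glycogen branching enzyme (-0.54 ± 0.10, adjusted p = 0.00169). Those called higher were Ppp1r3b and Ppp1r3c, which target a phosphatase to glycogen. Ppp1r3b, named here after its value was seen, differed by 0.59, and Ppp1r3c was higher (0.73 ± 0.23, adjusted p = 0.0407), a call that held in 8 of the 20 fits that left out a library. Without the pair Ppp1r3c was at 0.71, adjusted p = 0.0541. Pck1, a key enzyme of gluconeogenesis, was not called (-0.18 ± 0.14, adjusted p = 0.382). Of 21 genes of PPAR-alpha and fatty acid oxidation, 1 was called (4.76%, against 6.21% of all genes). Pdk4, a kinase that shuts off pyruvate dehydrogenase, was at 5.29 to 27.7 CPM (median 10.3) in the high set and 2.34 to 6.13 CPM (median 3.89) in the low set (log2 fold change 1.65 ± 0.23 (SE), adjusted p = 9.72e-05). None of 11 glucocorticoid receptor targets was called, but without C151S CDDO-Me 1 and Nrf2-knockout CDDO-Me 2 it was 3, 1 higher and 2 lower, in a fit that called 11.3% of all genes against 6.21% with the pair.

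Among drug-metabolizing genes, 4 of 11 were called, all lower (36.4%, against 6.21% of all genes called and 2.30% called lower). Over the 20 livers all 11 had a negative log2 fold change (median -0.48). Cyp2a5, a cytochrome of coumarin metabolism, was at 14.7 to 174 CPM (median 87.97) in the high set and 47.4 to 1287 CPM (median 229) in the low set (log2 fold change -2.44 ± 0.30 (SE), adjusted p = 3.53e-05). Wild-type livers held 498 to 836 CPM of Cyp2a5 with vehicle and 2839 to 4762 CPM with CDDO-Me. Por, the reductase that serves cytochromes P450, was at 138 to 960 CPM (median 289) in the high set and 458 to 934 CPM (median 605) in the low set (log2 fold change -0.86 ± 0.23 (SE), adjusted p = 0.0152). Its value of 960 CPM was that of Nrf2-knockout CDDO-Me 2, and without the acute phase pair Por differed by -1.23. Cyp1a2, a pericentral cytochrome, differed by -0.81 ± 0.25 (adjusted p = 0.0331). This call was kept in 14 of 20 fits that left out a library and lost without the acute phase pair (-0.61, adjusted p = 0.0684). Alas1, given above, was the other called member. Cyp3a11, the most abundant member, was not called (-0.07 ± 0.23), and without the acute phase pair its log2 fold change was positive (0.23). Of 19 NRF2 targets 17 were tested, and of these only Gclc, a subunit of the enzyme that limits glutathione synthesis, was called, at 131 to 366 CPM (median 272) in the high set and 105 to 260 CPM (median 153) in the low set (log2 fold change 0.55 ± 0.16 (SE), adjusted p = 0.0274). Wild-type livers held 365 to 445 CPM of Gclc with vehicle and 703 to 1391 CPM with CDDO-Me. The 1 call among the targets was 5.88% of those tested, near the 6.21% of all genes. The call of Gclc was lost in 5 of 20 fits that left out a library. Without C151S CDDO-Me 1 and Nrf2-knockout CDDO-Me 2, 4 of the 17 were called, all higher, and 7.59% of all genes were called higher in that fit, against 3.91% with the pair. Gstm1, the most abundant target, differed by -0.13 ± 0.16. Neither Nfe2l2 (-0.05 ± 0.10, adjusted p = 0.773) nor Keap1 (-0.14 ± 0.08, adjusted p = 0.278) was called between the sets.

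Some chaperone genes were lower in the high set. Of 14 heat shock genes 4 were called, all lower (28.6%, against 6.21% of all genes called and 2.30% called lower; median -0.36). Hspa8, the constitutive HSC70, was at 350 to 658 CPM (median 401) in the high set and 511 to 959 CPM (median 685) in the low set (log2 fold change -0.57 ± 0.14 (SE), adjusted p = 0.00917). Hsph1, an exchange factor of HSP70, differed by -0.74 ± 0.22 (adjusted p = 0.0272), a call kept in 16 of 20 fits that left out a library. The inducible HSP70 genes Hspa1b and Hspa1a differed by -1.34 ± 0.33 and -1.62 ± 0.38 (adjusted p = 0.0112 and 0.00836), but they are near-identical copies whose reads are hard to assign, and Hspa1a was at no more than 1.43 CPM. Hsp90ab1, the most abundant, did not pass the test (-0.04 ± 0.07). Neither of the cold-inducible genes was called, Rbm3 with 0.16 ± 0.11 and Cirbp with 0.47 ± 0.14. Cirbp, named after its value was seen, had an adjusted p = 0.0274 (edgeR) but a log2 fold change under 0.5. Of 19 genes of the unfolded protein response 2 were called lower, against 2.30% of all genes: Herpud1 (-0.61 ± 0.16, adjusted p = 0.0151) and Dnajb9 (-0.72 ± 0.18, adjusted p = 0.0110), which act in endoplasmic reticulum quality control.

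The acute phase genes, which the liver secretes during inflammation or which drive that response, had a median log2 fold change of 0.89 with the pair of livers that stood apart and of -0.03 without it. All 14 had a positive log2 fold change over the 20 livers and 4 were called (28.6%, against 6.21% of all genes): Fga, Fgb and Fgg, the chains of fibrinogen, and Stat3, the transcription factor of the acute phase response. Fga was at 5376 to 22840 CPM (median 7099) in the high set and 3799 to 7072 CPM (median 5481) in the low set (log2 fold change 0.95 ± 0.18 (SE), adjusted p = 0.00205). Its highest values were 22840 and 16710 CPM in C151S CDDO-Me 1 and Nrf2-knockout CDDO-Me 2. Fgb differed by 0.73 ± 0.17, Fgg by 0.76 ± 0.18 and Stat3 by 0.56 ± 0.13. DESeq2 called none of the fibrinogen genes, and the call of Stat3 was lost without either liver of the pair. C151S CDDO-Me 1 was the highest of the 20 mutant livers for all 14 genes. Without the pair 1 gene was called, Fga (0.61, adjusted p = 8.50e-04). Fgb (0.41, adjusted p = 0.00690), Fgg (0.40, adjusted p = 0.00672) and Stat3 (0.37, adjusted p = 0.0180) then still had an adjusted p under 0.05 but a log2 fold change under 0.5. Hpx, hemopexin, was the most abundant member and was not called with the pair (0.54 ± 0.26) or without it (-0.03).

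**Figure D4:**
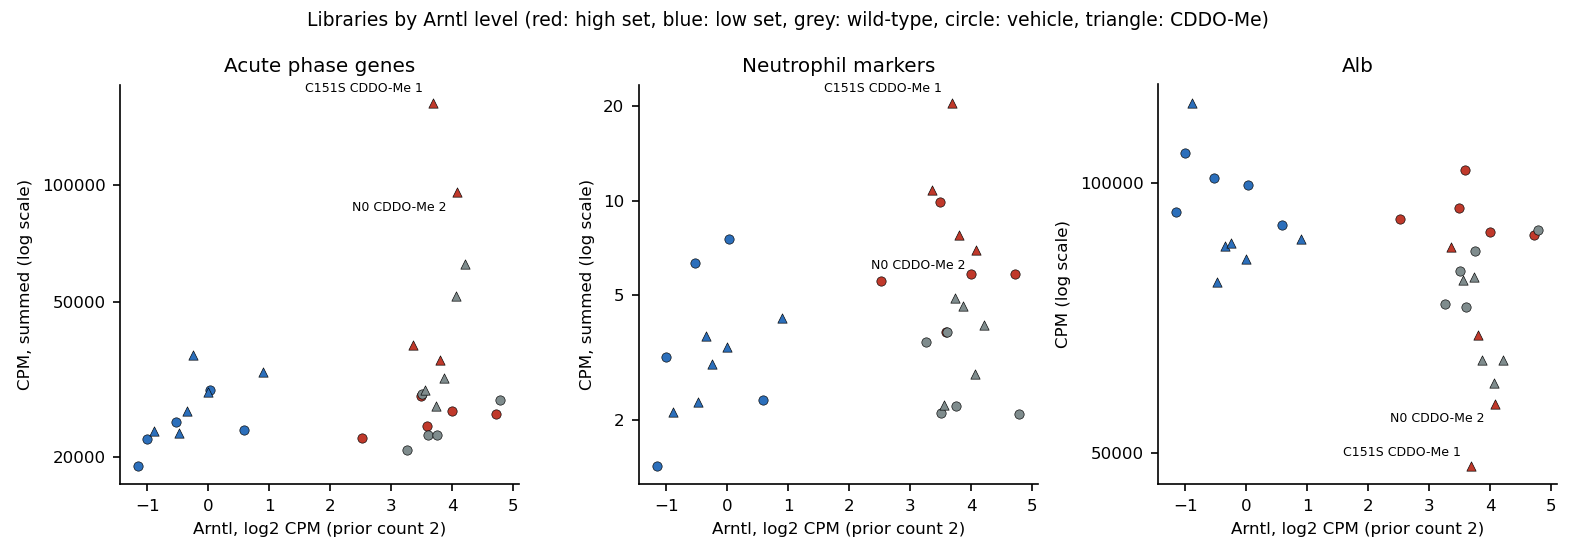
Arntl on the x axes (log2 CPM) against the summed CPM of 14 acute phase genes, the summed CPM of 5 neutrophil markers and the CPM of Alb on log y axes, 1 point per liver. C151S CDDO-Me 1 and Nrf2-knockout CDDO-Me 2 stand above the other mutant livers in the acute phase genes (162900 and 95830 CPM) and below them in Alb. The other points of both sets overlap in all 3 panels.

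Among markers of cells other than hepatocytes, neutrophil markers were higher in the high set, and 2 of 8 stellate cell and 1 of 6 cholangiocyte markers were called higher, where 3.91% of all genes were. The 5 neutrophil markers summed to 3.81 to 20.5 CPM (median 6.97) in the high and 1.43 to 7.56 CPM (median 3.17) in the low set, and all 4 that were tested were called higher: Csf3r (log2 fold change 1.08 ± 0.21 (SE), adjusted p = 0.00230), S100a8 (1.59 ± 0.39), S100a9 (1.59 ± 0.42) and Retnlg (1.24 ± 0.39), the last in only 7 of 20 fits that left out a library. Ly6g, a defining marker of neutrophils, had at most 3 reads in every mutant library. All 4 stayed called without C151S CDDO-Me 1 and Nrf2-knockout CDDO-Me 2, Csf3r at 1.04, adjusted p = 0.00273. Of 8 stellate cell and fibroblast markers, Pdgfrb (log2 fold change 0.75 ± 0.12 (SE), adjusted p = 3.74e-04) and Dcn, the most abundant (log2 fold change 0.67 ± 0.18 (SE), adjusted p = 0.0200), were called higher, and their sums were 161 to 547 CPM (median 358) and 169 to 356 CPM (median 257). The cholangiocyte marker Sox9 was higher (log2 fold change 1.00 ± 0.20 (SE), adjusted p = 0.00294), but Spp1, the most abundant of the 6 cholangiocyte markers, was not called (-0.15 ± 0.17). No marker of Kupffer cells, sinusoidal endothelium, lymphocytes or erythroid cells was called over 20 livers. Without the pair, 5 of 8 stellate, 3 of 7 Kupffer, 3 of 7 lymphocyte and 1 of 6 endothelial markers were called, all higher, and 1 of 5 erythroid markers was called lower, where that fit called 7.59% of all genes higher and 3.73% lower.

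The sums of the remaining types were 113 to 260 CPM (median 213) and 89.1 to 312 CPM (median 147) for 7 Kupffer cell markers and 168 to 319 CPM (median 258) and 153 to 328 CPM (median 203) for 6 endothelial markers in the high and the low set, with wide overlap. They were 2.105 to 8.69 CPM (median 4.92) and 2.25 to 5.76 CPM (median 3.61) for 7 lymphocyte markers and 102 to 277 CPM (median 167) and 121 to 409 CPM (median 194) for 5 erythroid markers. All 5 pancreatic acinar markers and 3 of 4 adipocyte markers had at most 3 reads in every mutant library. Lists of mitosis genes (15), ribosome biogenesis (13), immediate early genes (12) and periportal hepatocyte markers (9) held no called gene, whereas 6.21% of all genes were called. Of the ribosome biogenesis genes all 13 had a negative value (median -0.16). Without the acute phase pair 1 of the 13 was called lower, in a fit that called 3.73% of all genes lower. Mki67, the proliferation marker, was at 0.441 to 7.99 CPM (median 3.099) in the high set and 0.851 to 10.9 CPM (median 1.91) in the low set. Of 8 pericentral markers, Axin2 was called higher (0.74 ± 0.23) and Cyp1a2 and the ammonium transporter Rhbg (-1.03 ± 0.34) lower, but the calls of Axin2 and Rhbg held in 9 and 7 of 20 fits that left out a library. Of 13 growth hormone dependent and male-biased genes 1 was called, Selenbp2 (-1.36 ± 0.45, adjusted p = 0.0486), and this call held in 8 of 20 fits that left out a library. Whether the cells behind these markers had a part in the other differences was not tested.

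Each mutant was also fitted alone, which gave comparisons without a shared library. In C151S livers, 5 high against 5 low, 1246 of 14692 genes (8.48%) were called, 736 higher (5.01%) and 510 lower (3.47%). In Nrf2-knockout livers, 4 high against 6 low, 94 of 15068 (0.624%) were called, 48 higher (0.319%) and 46 lower (0.305%). The genes called in Nrf2-knockout livers were largely those of C151S livers. Of the 94, 67 (71.3%) were called in C151S livers in the same direction and none in the opposite one, and these 67 were 5.38% of the C151S calls. Of the C151S calls tested in Nrf2-knockout livers, 86.6% had the same sign there. By direction the shares were 86.9% of those higher and 86.2% of those lower, where 53.3% of all genes were higher and 46.7% lower in the knockout fit. Without C151S CDDO-Me 1 the C151S count rose to 2436, and without Nrf2-knockout CDDO-Me 2 the knockout count rose to 216.

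**Figure D5:**
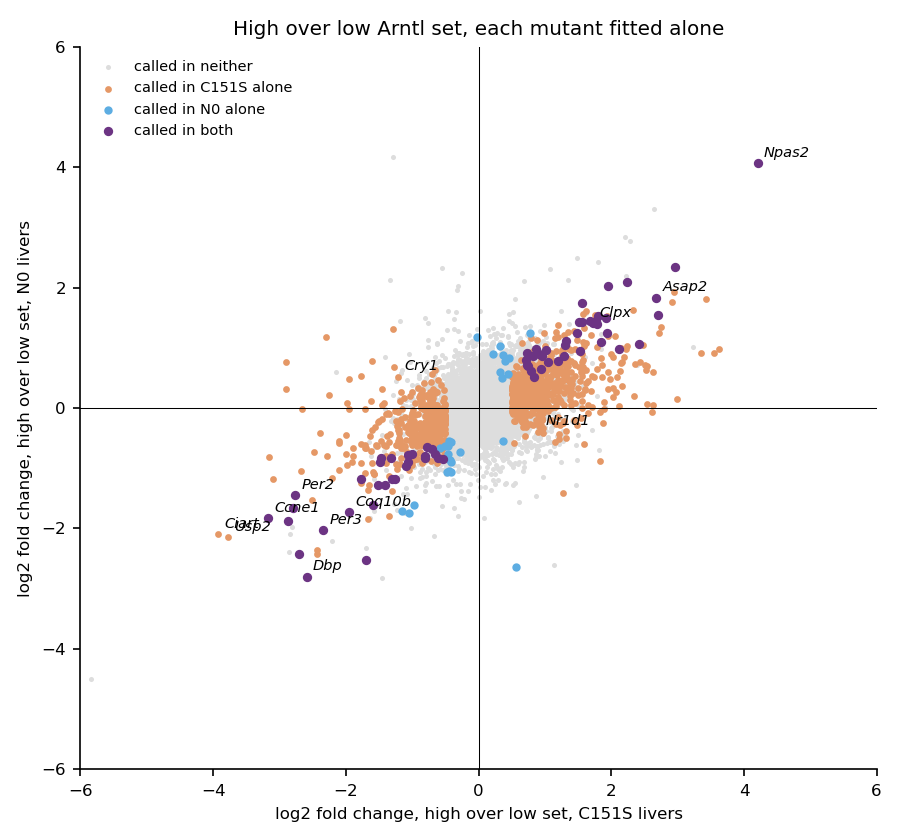
Log2 fold change between the high and the low Arntl set in C151S livers (x axis, 5 against 5) and in Nrf2-knockout livers (y axis, 4 against 6), 1 point per gene tested in both. Of the 94 genes called in Nrf2-knockout livers 67 were also called in C151S livers, 38 higher and 29 lower in the high set of both mutants, and Cry1 lies among the genes with opposite signs.

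Gene by gene, values are given side by side for both mutants. Clpx differed by 1.73 ± 0.14 in C151S and 1.42 ± 0.14 in Nrf2-knockout livers, and Coq10b by -1.96 ± 0.15 and -1.73 ± 0.19. Cyp2a5 differed by -2.44 and -2.43, although its levels did not match between genotypes, the median of the low set being 759 CPM for C151S mice and 103 CPM for knockouts. Larger in C151S by value were Asap2 (2.68 and 1.84), Per2 (-2.76 and -1.45), Nampt (-1.54 and -0.61) and Hsph1 (-1.39 and -0.103). Tested directly, the interaction of set and genotype was called for 0 of 15505 genes by edgeR, with 1578 at an unadjusted p under 0.05, and for 147 genes by DESeq2. Without C151S CDDO-Me 1, edgeR called 75. A difference between the genotypes was therefore not shown for any named gene by the edgeR test of all 20 livers.

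Within vehicle-treated mutants alone, 5 high against 5 low, 612 of 14840 genes (4.12%) were called, 298 higher (2.01%) and 314 lower (2.12%). Within CDDO-Me-treated mutants, 4 against 6, 189 of 14796 (1.28%) were called, 99 higher (0.669%) and 90 lower (0.608%). The sets thus differed in mice that got no drug. With upper quartile normalization the split was 332 higher and 223 lower in vehicle and 136 higher and 80 lower in CDDO-Me livers. The fits shared 110 calls, all in the same direction, which were 18.0% of the vehicle and 58.2% of the CDDO-Me calls. The interaction of set and treatment was called for 0 of 15505 genes, with 770 at an unadjusted p under 0.05, and DESeq2 called 8. In the CDDO-Me fit, leaving out C151S CDDO-Me 1 and Nrf2-knockout CDDO-Me 2 raised the count from 189 to 409 with 106 shared, and leaving out single libraries gave 49 to 333.

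The treatment and genotype terms of the mutants were fitted with and without the Arntl set. With the set in the model, the treatment term averaged over both mutants was called for 86 genes (0.564%), and without it for 50 (0.328%). The genotype term, C151S against Nrf2-knockout, was called for 346 genes (2.27%) with and 197 (1.29%) without the set. The common biological coefficient of variation fell from 0.260 without the set to 0.233 with it. The set was drawn from these same libraries and the other terms were not, so their counts are not set against its own.

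In wild-type livers, which the rule did not use, Arntl ranged less, from 3.26 to 4.79 on the log2 scale, and no liver fell in the low range. The slope on Arntl was called for 4 of 14516 genes (0.0276%), all positive, with 1918 at an unadjusted p under 0.05. They were Chka, choline kinase alpha (1.08 ± 0.10 per log2 unit of Arntl, SE, adjusted p = 0.00210), Tubb2a, a beta-tubulin (0.99 ± 0.11, adjusted p = 0.0115), Nab2, a corepressor of EGR factors (0.66 ± 0.08, adjusted p = 0.0197), and Loxl4, a lysyl oxidase (1.27 ± 0.16, adjusted p = 0.0197). Between the sets of the mutants, Chka differed by 1.58 ± 0.19, Loxl4 by 2.09 ± 0.28 and Tubb2a by 1.45 ± 0.23, and these 3 were called, whereas Nab2 (0.45 ± 0.19) was not. The wild-type count rested on single livers, since leaving out 1 at a time gave 0 to 265, the highest without wild-type CDDO-Me 5. Of the 946 genes called between the sets, 900 were tested in wild-type livers and 61.4% had a slope of the same sign (58.0% of those higher and 67.2% of those lower, where 50.1% of all genes had a positive and 49.9% a negative slope). The wild-type mean lay on the side of the high set for 57.9% of the called genes (66.3% of those lower, 53.0% of those higher) and for 45.3% of all genes tested.

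The sets were also visible without the core clock genes, although related genes such as the clock output Wee1 and Usp2 were not left out. In a principal component analysis of the 2000 most variable genes, with group means removed and Arntl and the clock lists left out, the second component held 15.9% of the variance, and 63.9% of its variance lay between the sets, with 1 high liver in the range of the low set. The first component held 25.4% and parted the sets less (20.1%), with 5 of the 9 high livers in the range of the low set. The highest scores on the second component were those of the acute phase pair (37.0 and 21.9, the next being 19.1). Without that pair 45.4% of the variance of the first component and 38.4% of that of the second lay between the sets, with 1 and 4 of the 7 high livers in the range of the low set.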

How the data were processed

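RNA-seq was measured in 30 mouse livers, 5 separate mice for each of 3 genotypes and 2 treatments. The deposited counts are raw read counts per gene that the authors made with STAR 2.7.7 on mm10 from stranded paired-end reads checked with fastp, and they analysed them with edgeR 3.36.0 and a batch term for the date of isolation, which is not used here. The 4 summary lines at the top of the table were left out of library sizes and tests, and 65.9% to 80.6% of the reads of a library were on genes. Gene symbols and positions came from GENCODE on GRCm38 for 55154 of 55335 genes, and promoters from RefSeq for 78 of 108 named genes. From the counts, edgeR 4.0.16 in R 4.3.3 (filterByExpr, TMM, quasi-likelihood F test, legacy fit) gave the differences, and tests on single measures were exact permutation tests. CPM values were scaled by TMM over 30 libraries. The fits were tested on simulated counts, and alternatives used DESeq2 1.42.0. Named genes were the clock lists, the 10 outside them with the lowest p in each direction, up to 4 called and the most abundant member of each other list, the 5 most and 5 least correlated with Arntl, and Nfe2l2 and Keap1; exceptions are stated, and some of these genes are not reported here. The members, the 35 gene lists and the tests were chosen with earlier results of these data known. Replicate numbers were not taken to pair livers, since same-numbered livers did not deviate together throughout.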

Additional observations from a re-analysis of the deposited data

Results flagged for a closer look

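Within each genotype and set of 4 to 6 livers, 96 groups of values were examined for a library far from the others, and 7 had one, where chance gives about 1 in 20, or 4.8. Hlf was 50.2 CPM in C151S CDDO-Me 1, against 22.5 to 27.3 CPM in the other C151S livers of the high set, and 52.2 CPM in Nrf2-knockout CDDO-Me 2, against 38.0 to 39.9 CPM in the other knockout livers of that set. These are the livers with the highest acute phase genes. Ciart was 0.674 CPM in Nrf2-knockout vehicle 5, against 10.1 to 10.7 CPM in the other knockout livers of the high set. Per2 was 38.7 CPM in C151S vehicle 5, against 56.0 to 63.0 CPM in the other C151S livers of the low set. Bhlhe41 was 7.68 CPM in Nrf2-knockout vehicle 1, against 1.93 to 3.11 CPM in the other knockout livers of the low set. Npas2 was 0 CPM in Nrf2-knockout CDDO-Me 4, against 0.0652 to 0.106 CPM in the other knockout livers of the low set, all of which are 4 reads or fewer. The same library had 27.8 M (mega) counts on genes, against 37.4 to 42.1 M in the others.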

How the results depend on the processing

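The assignment of the 20 livers was the same with TMM over 30 libraries, with a prior count of 0.5 and with a split at the widest gap of Npas2. With all livers kept and the sets unchanged, the count of 946 genes ranged from 790 (at least 10 counts in every library) to 1111 (DESeq2) under another tool, normalization, fit or filter, except that testing every gene with a read gave 1426 and dropping the threshold on the fold change 2316. No filter on low counts gave 1926 genes in C151S, 343 in Nrf2-knockout, 1246 in vehicle and 1090 in CDDO-Me livers, 468 for the interaction of set and genotype, 384 for that of set and treatment and 21 for the wild-type slope. No threshold on the fold change gave 2008 in C151S. DESeq2 gave 324 genes in Nrf2-knockout, 971 in vehicle and 634 in CDDO-Me livers, 147 and 8 for the interactions with genotype and treatment and 147 for the wild-type slope. At least 10 counts in every library gave 4 genes for the interaction with genotype. Without C151S CDDO-Me 1 and Nrf2-knockout CDDO-Me 2 the counts were 1747 over both mutants and 409 in CDDO-Me livers, and the share of the second principal component between the sets was 38.4%. With all 20 livers and no set in the model the treatment term had 50 and the genotype term 197 genes.

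Leaving out 1 library gave 709 (without C151S CDDO-Me 2) to 1254 (without C151S CDDO-Me 1) genes over both mutants, 839 (without C151S CDDO-Me 2) to 2436 (without C151S CDDO-Me 1) in C151S, 38 (without vehicle 4) to 216 (without CDDO-Me 2) in Nrf2-knockout, 295 (without C151S vehicle 5) to 850 (without Nrf2-knockout vehicle 3) in vehicle, 49 (without C151S CDDO-Me 4) to 333 (without Nrf2-knockout CDDO-Me 5) in CDDO-Me livers, 0 to 75 (without C151S CDDO-Me 1) and 0 to 1 for the interactions with genotype and treatment, and 0 to 265 (without wild-type CDDO-Me 5) for the wild-type slope. The difference in depth ranged from -4.53 to -2.93 M (mega) counts, with an unadjusted exact permutation p of 0.0491, 0.0241 and 0.0201 without C151S vehicle 4, Nrf2-knockout CDDO-Me 2 and Nrf2-knockout CDDO-Me 4. Of 70 named genes called, 56 were called in every such fit.

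Same-numbered livers of a genotype did not deviate together throughout (r from -0.354 to 0.461), so the numbers were not taken to pair them. A replicate block by number within genotype left 70 genes, 55 of them shared with the 946, a block across genotypes gave 1011, and the block gave 2 genes in C151S, 0 in Nrf2-knockout and 0 for the wild-type slope. Under the block within genotype, 21 of the 70 named genes called kept the same result. The other 49 had a weaker one, and 0 turned sign. Within a genotype only 3 of 10 same-numbered pairs had livers in both sets.

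A split at the widest gap of Dbp set Nrf2-knockout CDDO-Me 2 alone against 19 livers and gave 41 genes, 0 of them shared. This describes 1 liver and does not test the choice of marker. Of the 70 named genes called it turned the sign of Hlf (0.18), Hspa1a (0.31), Cyp7a1 (0.056), Dgat2 (0.11), Por (0.86), Gclc (-0.15), Axin2 (-0.42), Dcn (-0.030) and Retnlg (-0.63), none with an adjusted p under 0.05 there. The cause of these changes was not tested. Depth limits low genes such as Npas2, with 0 to 4 reads per library in the low set.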
